A study of Mus musculus with 6 samples.

Results

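Long noncoding RNAs (lncRNAs) are transcripts that work without being translated, and many of them are transcribed in the brain. The 8 genes described here were picked by name from a table of 31276 gene symbols: 9630013A20Rik, Neat1, Malat1, Meg3, Miat, Sox2ot, Rmst and Snhg11. All 8 were found in the table and passed the filter on low counts. They were proposed with the difference between knockout and wild-type brain already in view, so that difference is described for each of them and not tested. GENCODE M21 annotates 7 of the 8 under noncoding classes and Snhg11 as protein coding, while RefSeq classes Snhg11 as a lncRNA as well.

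Brain RNA of C57BL/6 mice at postnatal day 14 was sequenced in 3 samples labelled PRMT5 olig2cre KO (KO) and in 3 wild-type samples (WT). PRMT5 is an arginine methyltransferase of histones and RNA-binding proteins. The KO label names Cre recombinase driven by Olig2, a gene of the oligodendrocyte lineage, so most neurons and other brain cells lie outside the targeted lineage, although some neurons also descend from cells that expressed Olig2. Wild-type is the only description of the controls, and neither the Prmt5 allele nor the number of animals behind a sample is given. Libraries followed the TruSeq mRNA protocol, which selects polyadenylated RNA, and held 15089140 to 16872925 counts each.

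These lncRNAs act in different compartments and cells. Neat1 and Malat1 build or populate nuclear bodies, and Miat is a nuclear RNA of neurons. Meg3 comes from an imprinted locus, Sox2ot and Rmst are linked to the transcription factor SOX2, Snhg11 is a snoRNA host gene of neurons, and 9630013A20Rik belongs to oligodendrocytes, the cells that make myelin at this age. In bulk tissue, fewer cells of a type and less RNA per cell cannot be told apart.

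Levels are given as CPM, the share of a library's counts scaled to a fixed total, on TMM-scaled library totals, and each log2 fold change is that of KO over WT from edgeR's quasi-likelihood fit with their standard error (SE). A gene is called where its p, adjusted by Benjamini-Hochberg over the 16592 genes tested, is under 0.05. The called share was 1.20% of all genes tested, and 0.958% were called lower. Whether the samples of a group are separate animals is not given in the labels, so p-values measure only how far these samples spread, in part perhaps for technical reasons.

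The targeted gene was measured first. Prmt5 stood at 68.2, 68.4 and 81.6 CPM in KO replicates 1 to 3, against 90.8, 90.4 and 91.8 CPM in the WT libraries, a log2 fold change of -0.32 (SE 0.0950). The adjusted p for Prmt5 was 0.232, or 0.0379 where the replicate number was a block. The deleted stretch of Prmt5 is not given, so counts over all its exons check the labels only in part. The libraries also differed in other ways that touch the results below. Granule cells of the cerebellum express the receptor gene Gabra6, which was at 80.0, 0 and 22.1 CPM in KO replicates 1 to 3 and at 63.8, 0 and 0 CPM in the WT libraries. Xist, expressed in females, was at 634 and 603 CPM in KO replicates 1 and 2 and at 509 CPM in WT replicate 2 and at most 0.25 CPM in the other 3 libraries. Markers of neurons summed to 12570 to 13139 CPM in KO and to 11955 to 13678 CPM in WT, with 0 of 15 called. Of 10 markers of meningeal fibroblasts 9 had positive estimates and 6 were called higher, beside 0.241% of all genes. The summed level of the 10 was 376 to 612 CPM in KO against 252 to 290 CPM in WT. The part of these cells in the lncRNA levels was not tested.

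9630013A20Rik had the lowest log2 fold change of all 16592 genes. The gene, which RefSeq also lists as lncOL1, is transcribed in maturing oligodendrocytes and was reported in mouse to bind Suz12, a subunit of Polycomb repressive complex PRC2. It lies on the minus strand at chr14:84458639-84476424 (mm10, GENCODE M21), with 2803 exon bases, inside the protocadherin gene Pcdh17 on the opposite strand, with which it shares 0 exon bases. Its RefSeq promoter, from 250 bases before to 50 bases after the start site, is shown because this gene carries the strongest difference; it was read from chr14:84476375-84476674 of GRCm38.p6, minus strand. Capitals mark ACAATG, a core sequence of SOX factors, and the E-box CAGCTG, bound by basic helix-loop-helix factors such as OLIG2.

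9630013A20Rik promoter: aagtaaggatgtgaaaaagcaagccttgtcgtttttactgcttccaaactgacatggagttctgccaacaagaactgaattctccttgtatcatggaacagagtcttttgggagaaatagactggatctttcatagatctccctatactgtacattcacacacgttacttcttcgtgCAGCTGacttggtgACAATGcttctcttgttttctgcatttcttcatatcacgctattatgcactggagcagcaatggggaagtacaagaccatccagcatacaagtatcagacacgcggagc

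On both strands, ACAATG was found in 12.6% and CAGCTG in 16.3% of 32851 RefSeq promoters of the same length, and the 2 motifs have no letters in common here. The same search in the other members with a RefSeq promoter found CAGCTG in Malat1 and Snhg11, neither ACAATG nor CAGCTG in either Meg3 promoter or in Miat, and the related core ACAAAG, present in 18.7% of promoters, in Miat alone of the 5 members with a promoter in the table. These matches describe letters and not binding.

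9630013A20Rik had 76, 118 and 51 counts in KO replicates 1 to 3, against 765, 524 and 638 counts in WT replicates 1 to 3. Scaled, that was 4.62, 7.43 and 3.24 CPM in KO and 47.8, 35.4 and 38.4 CPM in WT. Every KO library was below every WT library, and KO replicate 2 was the highest of the KO libraries. The KO mean of 5.10 ± 2.14 CPM was 12.6% of the WT mean of 40.5 ± 6.46 CPM (SD, n = 3 each), a log2 fold change of -2.99 (SE 0.250). Pcdh17, on the other strand of the same stretch, stood at 89.1 ± 13.2 CPM in KO and 96.0 ± 2.65 CPM in WT, a log2 fold change of -0.11 (SE 0.110), with overlapping groups. The strand setting of the counting is not given in the sources used here. GENCODE M21 leaves no exon base in common between these genes, but the counts are named for UCSC knownGene, whose exons were not compared.

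Genes of the later lineage had profiles like that of this lncRNA. Over the 6 libraries its profile was most like those of Mbp, which encodes myelin basic protein, with a Pearson r of 0.999, Cldn11, a claudin of the myelin sheath, with 0.999, and the tetraspanin gene Tspan15, with 0.998. These correlations are descriptions over libraries that fall into 2 groups. The KO level was 15.0% of WT for Mbp, 18.8% for Bcas1, a gene of newly formed oligodendrocytes, 21.2% for the receptor gene Gpr17, 27.7% for the transcription factor gene Sox10, 53.5% for Olig2 and 57.3% for the precursor receptor gene Pdgfra. Among the lineage lists, edgeR called 15 of 15 mature genes lower, with a median log2 fold change of -2.59. It called 11 of 13 genes of newly formed oligodendrocytes lower, with a median of -1.33, and 3 of 10 precursor genes, with a median of -0.48. Over all genes tested 0.958% were called lower. The estimates of all 15, 13 and 10 genes were negative. With the replicate block 7 of the 10 precursor genes were called lower, beside 2.38% of all genes. Same-numbered libraries gave log2 ratios of -3.37, -2.25 and -3.57 for 9630013A20Rik, beside -3.15, -2.08 and -3.12 for Mbp. Replicate 2 was the smallest difference in both.

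**Figure D1:**
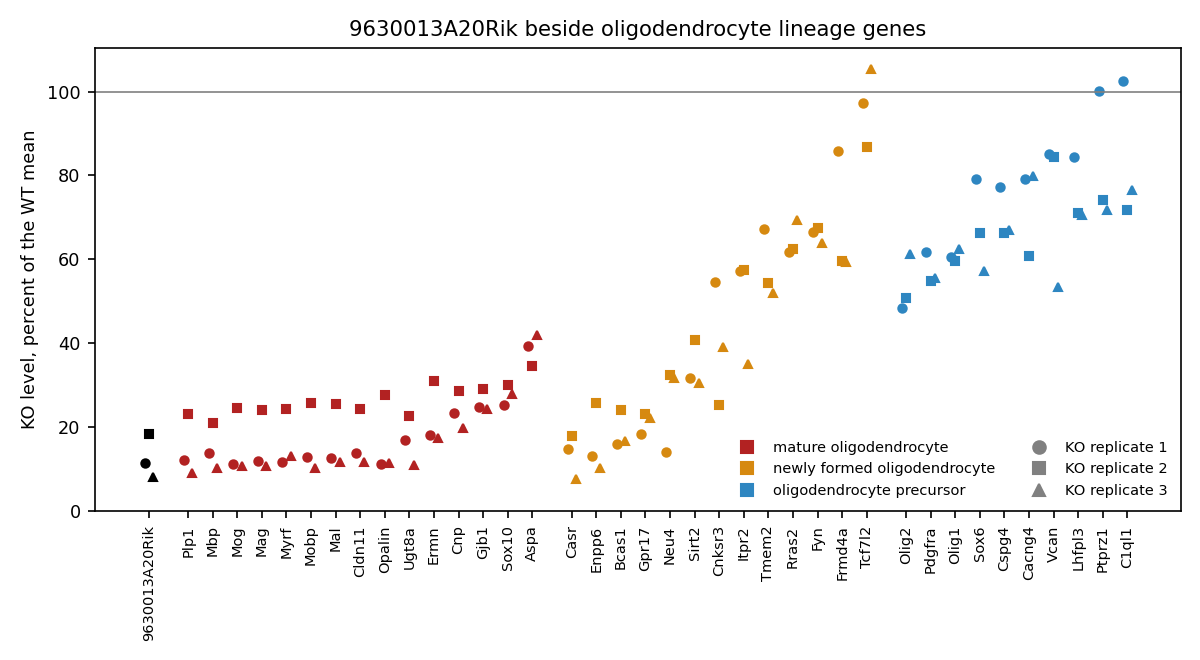
Level of 9630013A20Rik and of genes of the oligodendrocyte lineage in each KO library as a percent of the WT mean (vertical axis, grey line at 100%), with marker shape for the replicate and colour for the stage. The lncRNA lies at the low end beside the myelin genes, at 12.6% of the WT mean over 3 libraries, and precursor genes lie closer to the line.

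GENCODE M21 places 534 of the tested genes among its lncRNA genes. Of these 7 were called, all lower in KO, with 9630013A20Rik the lowest; the share of 1.31% is near the 1.20% of all genes. Their median log2 fold change was -0.01, beside 0.01 over all genes tested, and 48.3% against 52.3% were positive. Bcas1os2, annotated as antisense and named for the opposite strand of Bcas1, stood at 2.13, 4.35 and 2.92 CPM in KO and 16.1, 14.1 and 15.6 CPM in WT. Its log2 fold change was -2.28 (SE 0.234), with an adjusted p of 0.000606, and that of Bcas1 was -2.41 (SE 0.155), with an adjusted p of 2.71e-05. Their annotated exons share 34 bases, of 1174 exon bases in Bcas1os2, and without a stated strand setting reads there could count for either gene. 5830418P13Rik fell to 1.02 ± 0.235 CPM in KO, against 4.24 ± 0.997 CPM in WT (SD, n = 3 each, edgeR adjusted p = 0.00824). The replicate block called 16 of the 534, or 3.0% beside 3.41% of all genes, 3 higher and 13 lower, and 9630013A20Rik was among them.

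Neat1 and Malat1 are neighbours on chromosome 19, on the minus strand, 22036 bases apart. Neat1 (chr19:5824708-5845478, 20771 exon bases) is the scaffold of paraspeckles, nuclear bodies that form on its long isoform with the proteins SFPQ and NONO. Malat1 (chr19:5795690-5802672, 6983 exon bases) gathers at nuclear speckles, which hold splicing factors. Both loci are known for 3′ ends that are cut by RNase P and stabilised without a poly(A) tail, while the short Neat1 isoform is polyadenylated. The last 60 bases of their annotated transcripts are shown because selection of polyadenylated RNA bears on what was counted. The transcripts are from GENCODE M21, and capitals mark the polyadenylation signal AATAAA.

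Neat1-202, short: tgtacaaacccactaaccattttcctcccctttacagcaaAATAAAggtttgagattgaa
Neat1-201, long: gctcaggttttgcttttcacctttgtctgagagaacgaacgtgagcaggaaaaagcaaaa
Malat1-201: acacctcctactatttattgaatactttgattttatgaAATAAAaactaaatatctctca

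Within its last 60 bases the short Neat1 transcript of 3004 bases holds the signal and the long one does not, and the annotated Malat1 transcript holds it as well. AATAAA was found, in the sense direction, in the last 60 bases of 27.2% of 141515 GENCODE transcripts. The gene-level counts do not separate the Neat1 isoforms.

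Neat1 stood at 12.7, 17.8 and 12.2 CPM in KO replicates 1 to 3 and at 11.2, 13.1 and 12.3 CPM in the WT libraries. KO replicate 2 was above all others, and the other 5 libraries lay between 11.2 and 13.1 CPM. The means were 14.2 ± 3.08 CPM in KO and 12.2 ± 0.938 CPM in WT (SD, n = 3 each), a log2 fold change of 0.22 (SE 0.171), which was 0.03 (SE 0.156) without KO replicate 2. Of 19 tested genes for paraspeckle proteins 0 were called by edgeR, by DESeq2 or with the block, and 0 had an unadjusted p under 0.05. Sfpq had a log2 fold change of 0.01 (SE 0.0859) and Nono of 0.02 (SE 0.0808), and the list's median was 0.01.

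Malat1 spread widely among the KO libraries. It stood at 318.9, 403.0 and 163.1 CPM in KO replicates 1 to 3 and at 372.4, 309.7 and 247.2 CPM in WT. KO replicates 2 and 3 were the highest and the lowest of all 6 libraries. The means were 295 ± 122 CPM in KO and 309.8 ± 62.6 CPM in WT (SD, n = 3 each), a log2 fold change of -0.07 (SE 0.264). The estimate ran from -0.64 to 0.53 over 21 alternative fits. Among the libraries with cerebellar transcripts it was -0.64 (SE 0.241), and among those without them 0.53 (SE 0.0993). The first rests on 1 WT library, replicate 1, and the second on 1 KO library, replicate 2, and each lone library is assumed to vary like the others.

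The gene next to Neat1 on its other side was called lower in KO. Frmd8, whose product binds the iRhom proteins that traffic the ADAM17 protease, lies 4224 bases from Neat1. It fell to 9.85, 9.96 and 9.66 CPM in KO, against 21.6, 18.9 and 18.1 CPM in WT, a log2 fold change of -0.99 (SE 0.134) with an edgeR adjusted p of 0.00376. Every KO library was below every WT library for Frmd8, whereas the groups overlapped for Neat1.

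Miat, also called Gomafu, is a nuclear RNA of neurons that carries repeats of the branch-point sequence of introns, which the splicing factor SF1 binds in mouse and QKI in human neurons. It lies on the minus strand at chr5:112213228-112229395, with 9293 exon bases. ACTAAC, the core of the repeat, was found 11 times in the sense direction of the Miat-205 transcript of 9163 bases, which is 1.2 copies per kilobase. At least 11 copies were found in 0.185% of 7040 GENCODE transcripts of 5000 bases or more, and at least that density in 0.0426%. These shares are 13 and 3 transcripts. Miat-205 is among them, and other Miat transcripts were not left out. The longest transcripts of the other members held 0 to 4 copies. The stretch from base 4932 to base 5082 of Miat-205 is shown because it holds 4 copies, in capitals.

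Miat-205, bases 4932 to 5082: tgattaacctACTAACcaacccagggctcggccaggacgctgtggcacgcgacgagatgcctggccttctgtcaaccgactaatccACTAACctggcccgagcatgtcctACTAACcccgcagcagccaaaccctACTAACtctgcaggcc

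Miat stood at 269.9, 386.8 and 247.8 CPM in KO replicates 1 to 3 and at 276.0, 334.3 and 316.1 CPM in WT. The groups overlapped, and KO replicates 2 and 3 were again the highest and the lowest library. The means were 301 ± 74.7 CPM in KO and 309 ± 29.8 CPM in WT (SD, n = 3 each), a log2 fold change of -0.03 (SE 0.155). Without KO replicate 2 it was -0.26 (SE 0.114).

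Of 18 genes for splicing factors linked to Malat1 or Miat, Qk was the 1 called by edgeR, lower in KO, and the list's median log2 fold change was 0.04. Qk encodes the quaking RNA-binding proteins, which oligodendrocytes use to process myelin transcripts. It fell to 263, 238 and 215 CPM in KO replicates 1 to 3, against 404, 370 and 365 CPM in WT, a log2 fold change of -0.67 (SE 0.102) with an edgeR adjusted p of 0.00787. The KO libraries were all below the WT libraries. The other 17 genes ran between -0.05 and 0.24.

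Sox2ot spans the largest stretch of the 8, on the plus strand at chr3:34104270-34682619, with 11594 exon bases. The single-exon gene Sox2, which encodes a transcription factor of neural stem cells and glia, lies inside it on the same strand, at chr3:34650405-34652461, and shares 0 exon bases with it. Sox2ot had 224, 364 and 206 counts in KO replicates 1 to 3, against 392, 431 and 486 counts in WT. Its levels were 13.6, 22.9 and 13.1 CPM in KO and 24.5, 29.1 and 29.2 CPM in WT. Every KO library was below every WT library, which held for 7.99% of all genes tested, and KO replicate 2 was close to WT replicate 1.

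The KO mean of Sox2ot, 16.5 ± 5.54 CPM, was 59.9% of the WT mean, 27.6 ± 2.71 CPM (SD, n = 3 each), a log2 fold change of -0.74 (SE 0.202). The estimate was negative in all 21 alternative fits, from -1.05 without KO replicate 2 to -0.35 among the libraries without cerebellar transcripts. Sox2ot was below the threshold for a call in the fit of all 6 libraries and past it with the replicate block, where the estimate was -0.77 (SE 0.144), with DESeq2, with exon length offsets and the block together, and without KO replicate 2. Sox2 itself stood at 41.5, 46.6 and 41.3 CPM in KO and 43.4, 42.0 and 39.3 CPM in WT, with overlapping groups and a log2 fold change of 0.05 (SE 0.0995). The most alike profiles were those of Slitrk5, with a Pearson r of 0.996, Lrp11, with 0.995, and Chadl, with 0.994, over 6 libraries. Pearson r does not measure size, and their log2 fold changes were -0.13, -0.11 and -0.41, smaller than that of Sox2ot. These libraries also fall into 2 groups.

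Rmst, which in human neural progenitors binds SOX2 and takes part in neurogenesis, lies on the minus strand at chr10:92071037-92165170, with 7423 exon bases. It had the fewest counts of the 8 over all libraries, with 62, 76 and 72 in KO replicates 1 to 3 and 67, 31 and 37 in WT. That was 3.77, 4.79 and 4.57 CPM in KO and 4.19, 2.10 and 2.23 CPM in WT. WT replicate 1, a library with cerebellar transcripts, lay among the KO libraries, and WT replicates 2 and 3 lay below them. The means were 4.38 ± 0.537 CPM in KO and 2.84 ± 1.17 CPM in WT (SD, n = 3 each), a log2 fold change of 0.62 (SE 0.295). In the libraries that held cerebellar transcripts it was -0.01, and in those without 1.14, with 1 WT library in the first and 1 KO library in the second.

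Of 12 genes for SOX2 and other progenitor factors, 0 were called by edgeR or DESeq2. With an unadjusted p under 0.05 there was 1, Sox1, at 0.45 (SE 0.150), and the block called 1, Pax6, higher in KO. Pax6, a transcription factor gene that cerebellar granule cells also express, stood at 37.3, 15.3 and 20.3 CPM in KO and 30.2, 8.79 and 9.81 CPM in WT. Its highest libraries were KO replicate 1 and WT replicate 1, which also held the most Gabra6.

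Meg3 had the most counts of the 8. It is the maternally expressed lncRNA of the imprinted Dlk1-Dio3 domain, on the plus strand at chr12:109541001-109571726, with 18089 exon bases. It stood at 2463, 3743 and 2157 CPM in KO replicates 1 to 3 and at 2325, 2702 and 2519 CPM in WT. KO replicate 2 was well above the rest, and the other KO libraries fell on either side of WT replicate 1. The means were 2788 ± 842 CPM in KO and 2515 ± 189 CPM in WT (SD, n = 3 each). The log2 fold change was 0.15 (SE 0.178), and -0.12 (SE 0.115) without KO replicate 2.

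Other genes of the Dlk1-Dio3 domain gave 0 calls among 5 tested by edgeR, DESeq2 or the block, and 1, Dlk1, had an unadjusted p under 0.05. Dlk1, a paternally expressed Notch-like ligand, stood at 28.2, 22.4 and 25.4 CPM in KO and 23.5, 15.4 and 18.4 CPM in WT, a log2 fold change of 0.41 (SE 0.165, edgeR adjusted p = 0.445). The maternally expressed RNAs Rian and Mirg had log2 fold changes of 0.07 (SE 0.0980) and 0.21 (SE 0.202). Rows for Mir1906-1 and Mir770 lie on Meg3 exons, sharing 80 and 94 bases, so their values, 0.00 and 0.22 on the log2 scale, may rest on reads of Meg3.

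Snhg11 lies on the plus strand at chr2:158375638-158386145, with 8521 exon bases and 2 annotated snoRNAs in its span. It stood at 949, 1693 and 967 CPM in KO replicates 1 to 3 and at 879, 1198 and 1057 CPM in WT. KO replicate 2 was the highest library, and the other KO libraries lay within the WT range. The means were 1203 ± 424 CPM in KO and 1045 ± 160 CPM in WT (SD, n = 3 each), a log2 fold change of 0.20 (SE 0.207). Without KO replicate 2 it was -0.12 (SE 0.134).

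**Figure D2:**
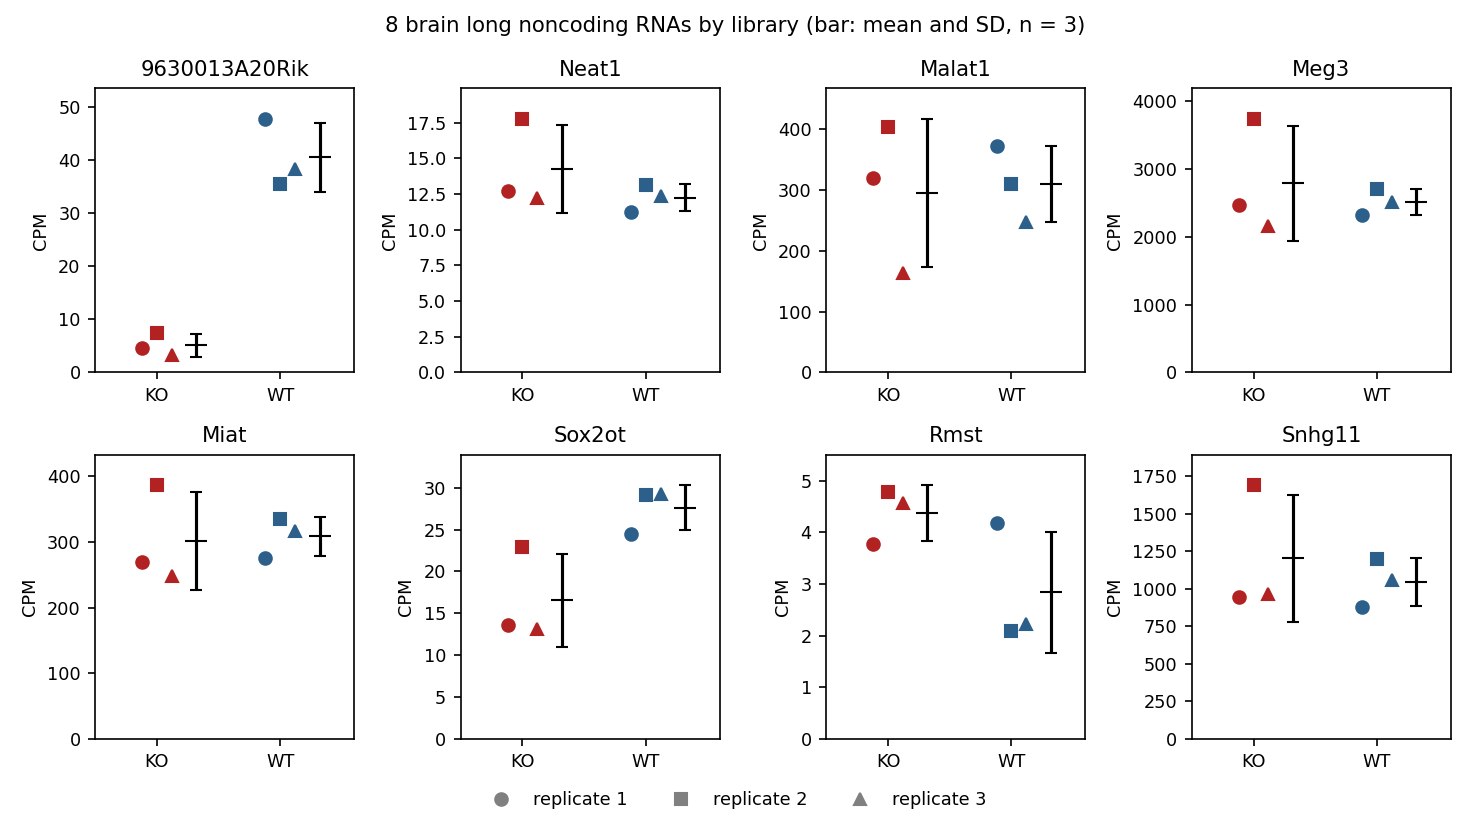
Level of the 8 lncRNAs in CPM (vertical axes from 0) in each library, with KO left of WT, marker shape for the replicate, and a bar for the mean and SD of 3 libraries. The groups are apart for 9630013A20Rik and Sox2ot, lower in KO, and overlap for the other 6, and KO replicate 2 is the highest KO library in every panel.

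The genes around the members were measured beside them. Of the nearest genes on each side that averaged 1 CPM or more, Frmd8 was called, and the others reported here had log2 fold changes between -0.40 and 0.41. Malat1 and Neat1 are each other's nearest neighbour on 1 side.

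**Figure D3:**
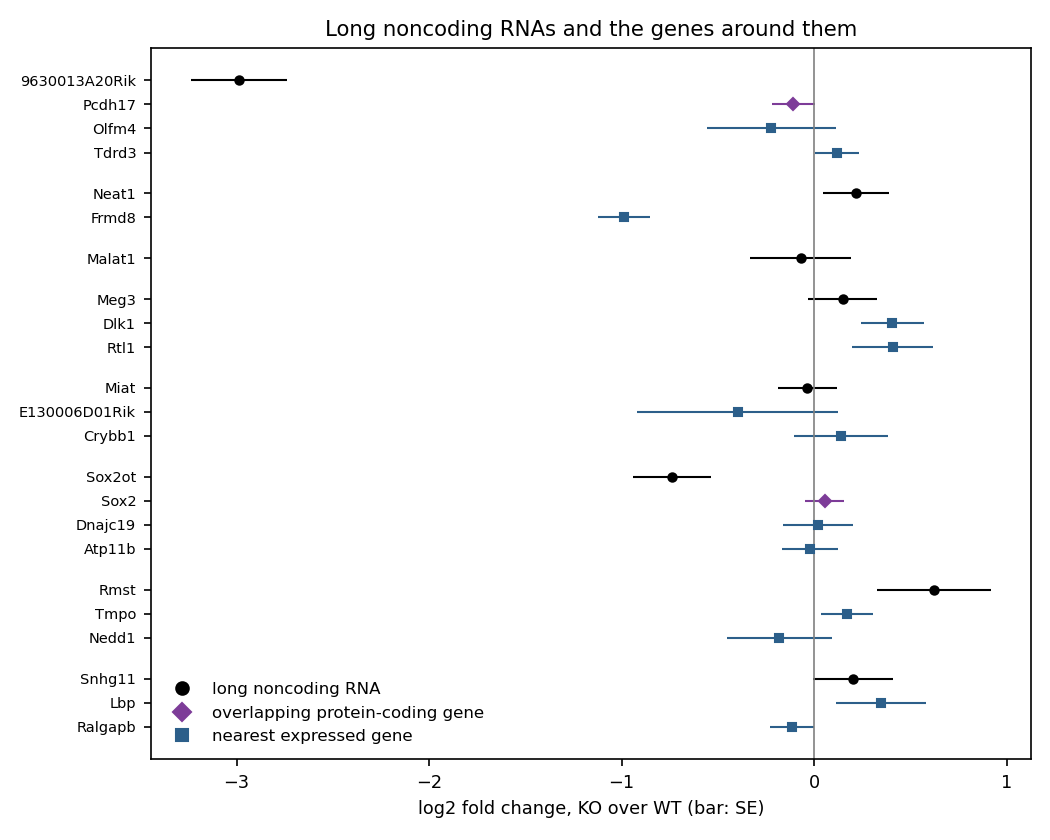
Log2 fold change, KO over WT, with SE (horizontal axis) for each lncRNA, the protein-coding gene that overlaps it and the nearest expressed genes reported here. 9630013A20Rik at -2.99 and Sox2ot at -0.74 stand apart from Pcdh17 at -0.11 and Sox2 at 0.05, and Frmd8 at -0.99 stands apart from Neat1 at 0.22.

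Over the 8 lncRNAs as a group, 1 was called by edgeR, 2 by DESeq2, where 1.89% of genes were called, and 2 with the replicate block, where 3.41% were; with DESeq2 and the block the 2 were 9630013A20Rik and Sox2ot. The KO and WT ranges did not overlap for 2 of 8, against 16.0% of all genes. Their median log2 fold change was 0.06, with 4 positive and 4 negative, beside 0.01 over all genes tested. Because this contrast was in view when the 8 were chosen, these counts describe them and nothing more is read from them.

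**Figure D4:**
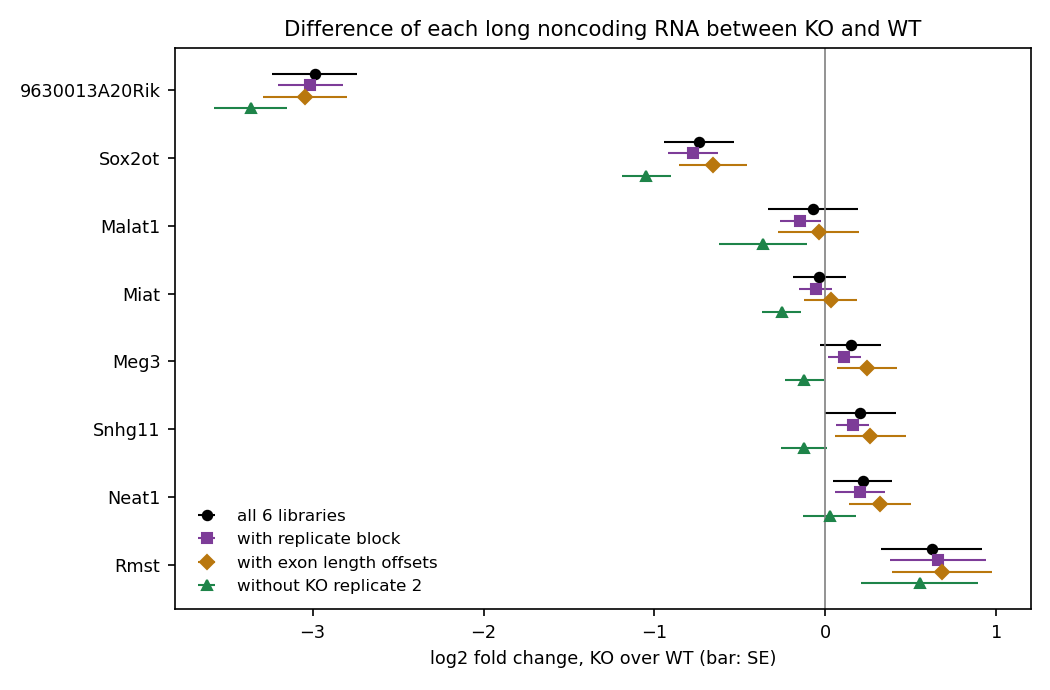
Log2 fold change, KO over WT, with SE (horizontal axis) for each lncRNA in the fit of all 6 libraries, with the replicate block, with exon length offsets and without KO replicate 2. Estimates for 9630013A20Rik and Sox2ot are negative in all 4 fits, and those for Meg3 and Snhg11 change sign without KO replicate 2.

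KO replicate 2 stood high for most of the 8. It was the highest of the 6 libraries for 6 of the 8 lncRNAs, where 19.1% of all genes were highest in it, and KO replicate 3 was the lowest for 5 of 8, beside 22.7% of all genes. The level in KO replicate 2 was 1.15 to 1.89 times the mean of KO replicates 1 and 3, with 1.15 for Rmst, 1.43 for Neat1, 1.77 for Snhg11 and 1.89 for 9630013A20Rik. KO replicate 2 is the KO library without Gabra6, and its neuron markers summed to 13139 CPM, beside 12570 and 12730 CPM in KO replicates 1 and 3. Across genes within a library, the correlation of a gene's deviation with its exon length was 0.193, -0.137 and -0.411 in KO replicates 1 to 3 and 0.222, 0.108 and 0.110 in WT. The part of cerebellar tissue and of transcript length in these levels was not tested.

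**Figure D5:**
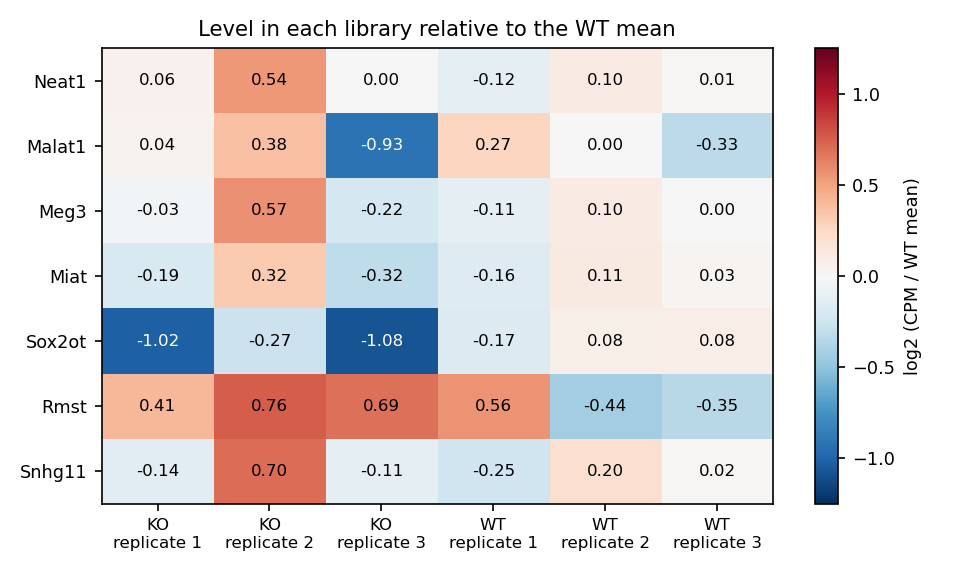
Log2 ratio of the level in each library to the WT mean for 7 lncRNAs (rows) in the KO and WT libraries (columns), without 9630013A20Rik, with red above and blue below the WT mean. KO replicate 2 is positive for all but Sox2ot, and KO replicate 3 is the lowest library for Malat1, at -0.93, Meg3, at -0.22, Miat, at -0.32, and Sox2ot, at -1.08.

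Levels can be compared between genes only per length. The lengths used are those of GENCODE M21, while the counts are named for UCSC knownGene. Per kilobase of exon, the WT order was Meg3 with 139 ± 10.4 CPM, Snhg11 with 123 ± 18.7, Malat1 with 44.4 ± 8.97, Miat with 33.2 ± 3.21, 9630013A20Rik with 14.5 ± 2.30, Sox2ot with 2.38 ± 0.234, Neat1 with 0.589 ± 0.0452 and Rmst with 0.382 ± 0.158 CPM per kilobase (SD, n = 3). The KO means had the same order, with 1.82 ± 0.763 CPM per kilobase for 9630013A20Rik and 1.43 ± 0.478 for Sox2ot, which overlapped there. In WT the library values of neighbouring ranks overlapped for Meg3 and Snhg11, for Malat1 and Miat, and for Neat1 and Rmst. The order depends on the length chosen. Per kilobase of the longest transcript, WT Snhg11 was at 178 and Meg3 at 173 CPM, Sox2ot was at 7.92 CPM, and Rmst was above Neat1, with 0.981 and 0.589 CPM. With the length of its short isoform, Neat1 stood at 4.74 ± 1.03 CPM per kilobase in KO and 4.07 ± 0.312 in WT. That takes all Neat1 reads as those of the short isoform, which the counts do not separate. The WT value was above the Sox2ot level per kilobase of exon, 2.38, and below that per kilobase of its longest transcript, 7.92.

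LncRNAs outside the 8 were measured on 2 lists. Among 34 tested nuclear and neural lncRNAs, 0 were called by edgeR or DESeq2, and 2 had an unadjusted p under 0.05, or 5.88% beside 9.67% of all genes. These were Nkx2-2os, at 3.04, 2.65 and 2.03 CPM in KO against 4.81, 3.99 and 5.17 CPM in WT, and Jpx, an activator of Xist, at 5.35, 5.80 and 5.40 CPM in KO against 4.75, 3.51 and 3.73 CPM in WT. Their log2 fold changes were -0.85 (SE 0.245) and 0.46 (SE 0.206). The block called 2, or 5.88% beside 3.41% of all genes, Tsix higher and 1700020I14Rik lower. Tsix was highest in the libraries that express Xist, its antisense partner, and without a stated strand setting its counts may include reads of Xist.

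The second list held snoRNA host genes, whose introns release small nucleolar RNAs that guide modification of ribosomal RNA. Of 18 tested, 0 were called by edgeR, DESeq2 or the block, and 4 had an unadjusted p under 0.05, or 22.2% beside 9.67% of all genes. All 18 estimates were positive, with a median of 0.36, beside 52.3% positive and a median of 0.01 over all genes tested. Snhg4 stood at 6.51, 8.76 and 7.43 CPM in KO and 3.94, 4.19 and 6.02 CPM in WT, and Snhg6 at 9.00, 13.4 and 13.0 CPM in KO and 8.06, 8.79 and 8.12 CPM in WT. The log2 fold changes were 0.68 (SE 0.221) for Snhg4, 0.51 (SE 0.182) for Snhg6, 0.94 (SE 0.286) for Snhg7 and 0.82 (SE 0.289) for Snhg18, and the KO libraries were above the WT libraries in each, as for 8.02% of all genes. These 4 were named after their values were seen.

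An exon length was found for 11 of the 18 hosts, 61.1%, so length cannot be checked for the whole list. Their median was 1730 exon bases, beside 4401 over all genes tested. Genes grouped by exon length had a median log2 fold change of 0.11 in the shortest group and -0.07 in the longest. With exon length offsets, which leave hosts without a length unadjusted, 17 of 18 estimates were positive, with a median of 0.25. Among the libraries with cerebellar transcripts, with 1 WT library, 13 of 18 were positive. The part of length was not tested. Gas5, with the highest CPM of them, had a log2 fold change of 0.04 (SE 0.127). Snhg11, which shares the name, had 0.20 (SE 0.207).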

How the data were processed

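RNA of 3 KO and 3 WT mouse brain samples was sequenced as 150 bp paired-end reads, per the labels' protocols. The submitters' processing notes name the build mm10 and the tools STAR 2.3.0e, featureCounts 1.5.0, Trimmomatic 0.32, FastQC 0.11.2 and DESeq2; their roles and the strand setting are not given in the sources used here. The authors deposited whole-number read counts per gene over exons, named for UCSC knownGene, and a normalized signal. That signal was the count over a factor fixed for each library (largest spread of the factor within a library 1e-14).

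All tests used the deposited counts, in R 4.3.3. After filterByExpr 16592 genes were left, scaled with TMM and fitted with edgeR 4.0.16 (glmQLFit, glmQLFTest, 4 residual degrees of freedom, Benjamini-Hochberg adjustment). The fit was tested on simulated data. CPM was computed here on TMM-scaled totals. Profile likeness used log2 CPM with a prior count of 2, over genes that averaged 5 CPM or more. Predicted genes and genes named for a clone, such as Rik symbols, were left out of that search. Coordinates and exon lengths are from GENCODE M21, which holds 22559 of the 31276 symbols, and promoters from RefSeq (GRCm38.p6), which held 5 of the 8 members. The deposited counts are named for UCSC knownGene, a different annotation. Exon lengths and shared exon bases given here may therefore differ from those over which reads were counted. In the motif search every copy was counted, on both strands in promoters.

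The members and the gene lists were chosen with earlier results of these data known. Genes named are the members, Prmt5, overlapping genes and nearest expressed neighbours, the 3 most alike genes of a member, called genes of a list (up to 6) and 16 fixed genes; not all are printed, and 1 neighbouring gene is not reported here. Snhg4, Snhg6, Snhg7, Snhg18, Gas5, Nkx2-2os, Jpx, Tsix, Pax6, Sox1, 1700020I14Rik, 5830418P13Rik and Bcas1os2 were named after their values were seen.

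Same-numbered samples deviated together from their group means, with correlations of 0.351, 0.334 and 0.177, all over 0.1. The labels state no pairing, so the main fit of all 6 libraries left it out and the replicate block was an alternative. Same-numbered samples were not alike in all respects. Xist was at 634 CPM in KO replicate 1 and 0.25 CPM in WT replicate 1. Gabra6 was at 22.1 CPM in KO replicate 3 and 0 CPM in WT replicate 3. Alternatives were 19 fits planned and 2 added: other scalings, filters and tools (DESeq2 1.42.0, limma 3.58.1 as voom and on the deposited normalized signal as log2 of the value plus 1), the replicate block with 2 residual degrees of freedom, exon length offsets (loess span 0.5), terms for cerebellar transcripts or sex (Gabra6 or Xist above 5 CPM) and leaving out each library.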

Additional observations from a re-analysis of the deposited data

How the results depend on the processing

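Against 199 genes called in the fit of all 6 libraries, DESeq2 called 313, limma on log2 of the normalized signal 68, the fit with the replicate block 566, exon length offsets with the replicate block 472 and a term for sex 129. Leaving out 1 library gave 100 to 305 calls: 305 without KO replicate 1, 132 without KO replicate 3, and 126, 110 and 100 without WT replicates 1, 2 and 3. Of the 8 lncRNAs, 1 was called with all libraries, and 2 with DESeq2, with the replicate block and with exon length offsets and the block. Leaving out 1 library gave 1 to 2, the second being Sox2ot without KO replicate 2. Among the libraries without cerebellar transcripts, a comparison added after seeing the data that rests on 1 KO library, assumed to vary like the WT libraries, 1254 genes were called, with 5 of the 8 lncRNAs: 9630013A20Rik, and Malat1, Meg3, Rmst and Snhg11 higher in KO. There 11 of the lncRNAs on the 2 other lists were called, and 2 among the libraries with those transcripts, which hold 1 WT library and borrow its spread in the same way, against 0 with all libraries. These lists held 52 tested lncRNAs. For them the replicate block called 2, exon length offsets with the block 1, limma on the normalized signal 1, and leaving out 1 library 0 to 1. Among the libraries without cerebellar transcripts the calls rose over all genes as well. The share of all genes called there is not given here, and that fit rests on 1 KO library. Whether the rise differed between lncRNAs and other genes was not tested. The cause of these shifts was not tested. The log2 fold change of 9630013A20Rik ran from -3.61 to -2.31 over 21 fits and that of Sox2ot from -1.05 to -0.35, with no change of sign; Neat1 was positive in all 21. Meg3, Snhg11 and Rmst were positive in 19, 20 and 20 of 21, Malat1 negative in 18 and Miat in 14. Low counts limit Rmst, with 31 to 76 counts per library.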

Other observations

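Gt(ROSA)26Sor, the transcript of a locus often used for reporter alleles, stood at 31.8, 11.7 and 12.5 CPM in KO replicates 1 to 3 and at 8.12, 10.0 and 8.84 CPM in WT. It was named after its values were seen. Its log2 fold change was 1.06 (SE 0.333), with an edgeR adjusted p of 0.278, or 0.0283 when blocked by replicate, and KO replicate 1 stood apart from the other 5 libraries. 2810468N07Rik, a lncRNA annotated as antisense, stood at 10.6, 17.8 and 12.7 CPM in KO and 21.5, 20.9 and 23.0 CPM in WT, with an edgeR adjusted p of 0.165, or 0.0106 when blocked.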
